A study of Mus musculus with 24 samples.

Results

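Imprinted genes that control growth were followed by microarray at 6 stages of development, E7.5 to E12.5, in mouse primitive erythroid cells, the first, yolk sac-derived red blood cells of the embryo. The genes were listed by symbol as H19, Igf2, Igf2r, Dlk1, Peg3, Peg10, Grb10, Mest, Cdkn1c and Plagl1, and 9 of these 10 genes had at least 1 probe among the 17583 genes named on the array. The 9 genes were read by 18 probes, and H19 was not analysed here because no probe carried its symbol in the annotation used. The values did not enter the choice of the genes, although earlier results of these data were known.

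The cells were sorted by flow cytometry for green fluorescence from mouse embryos whose genotype is given as human epsilon globin::H2B-EGFP, a histone H2B-EGFP fusion under the promoter of the human epsilon-globin gene, and every group carried this transgene. Up to E9.5 the embryos were dissociated whole with collagenase, and from E10.5 on the cells were taken from embryonic blood. Replicates up to E10.5 were pools of embryos, and those of E11.5 and E12.5 were single embryos. RNA of E7.5 and E8.5 was amplified in 2 rounds (3 arrays each), and RNA of E8.5 (6 arrays) and of each later stage to E12.5 (3 arrays each) in 1 round, and the amplifications were never compared with each other.

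Genomic imprinting is the expression of a gene from the allele of 1 parent, set by DNA methylation laid down in the germ line. Imprinted genes are enriched for regulators of fetal growth. Igf2, Dlk1, Mest, Peg3, Peg10 and Plagl1 are expressed from the paternal allele and H19, Igf2r and Cdkn1c from the maternal allele in most mouse tissues, whereas the parental origin of Grb10 expression depends on the tissue. Igf2 and H19 share enhancers and an imprinting control region, and Igf2r removes IGF2 from the cell surface. The arrays measured the summed transcript of both alleles, and in bulk RNA fewer cells of a type and less RNA per cell cannot be told apart.

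Sequences upstream of the transcription start are shown for Igf2, Dlk1 and Mest, 3 genes whose signal was lower at E11.5 than at E8.5, and for Peg3, whose signal was higher. Each is the 250 bases before an annotated start in RefSeq (build GRCm38.p6), 5′ to 3′ on the strand of the gene, and the window with most CpG dinucleotides was taken where a gene has several starts. Capitals mark matches, on either strand, to 4 short motifs. The first was GATAA, which occurs in sites of erythroid GATA factors. The second was CCACACCC, a KLF1-type element found in the beta-globin promoter. The third was GGGCGG, the GC box. The last was TATAA, as in the TATA box. No match overlapped another in these windows.
Igf2, chr7:142658805-142659054, minus strand: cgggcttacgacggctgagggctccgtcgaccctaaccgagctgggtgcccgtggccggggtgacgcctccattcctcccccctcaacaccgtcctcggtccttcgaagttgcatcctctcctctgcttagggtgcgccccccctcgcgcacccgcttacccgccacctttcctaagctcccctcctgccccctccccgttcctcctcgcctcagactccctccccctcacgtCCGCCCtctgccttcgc
Dlk1, chr12:109452573-109452822, plus strand: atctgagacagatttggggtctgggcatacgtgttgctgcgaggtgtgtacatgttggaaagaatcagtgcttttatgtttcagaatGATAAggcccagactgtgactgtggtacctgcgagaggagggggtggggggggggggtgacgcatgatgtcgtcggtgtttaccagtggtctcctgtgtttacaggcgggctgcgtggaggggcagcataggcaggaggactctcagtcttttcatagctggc
Mest, chr6:30737800-30738049, plus strand: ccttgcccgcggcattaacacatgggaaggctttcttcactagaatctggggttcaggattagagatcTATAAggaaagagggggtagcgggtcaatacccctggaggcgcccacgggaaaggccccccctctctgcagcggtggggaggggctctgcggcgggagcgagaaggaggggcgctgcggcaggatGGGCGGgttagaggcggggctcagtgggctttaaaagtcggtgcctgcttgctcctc
Peg3, chr7:6730420-6730669, minus strand: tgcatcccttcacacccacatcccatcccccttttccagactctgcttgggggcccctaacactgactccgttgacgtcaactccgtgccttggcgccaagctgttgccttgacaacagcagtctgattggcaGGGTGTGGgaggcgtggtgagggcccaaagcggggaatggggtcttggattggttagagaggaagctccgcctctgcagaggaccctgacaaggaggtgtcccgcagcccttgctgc

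The Igf2 window held 1 GGGCGG and 22 CpG dinucleotides, the Mest window 1 GGGCGG, 1 TATAA and 14 CpG dinucleotides. The Dlk1 window held 1 GATAA and the Peg3 window 1 CCACACCC, each with 8 CpG dinucleotides. Among 32851 windows of this length, 22.6% held GATAA, 3.2% CCACACCC, 32.7% GGGCGG and 22.8% TATAA, and the median window held 6 CpG dinucleotides. Windows were on hand for 7 of the 10 genes, 13 in all, of which 11 had more CpG dinucleotides than that median. A match describes the letters only, and the probes do not tell which start a transcript used.

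Between 13159 and 14037 probes were detected on the arrays with 2 rounds, 12355 to 15387 on those of E8.5 to E11.5 with 1 round, and 8542 to 10570 at E12.5. A probe was called detected at a detection p-value under 0.05, the chance of such a signal among negative controls. Replicate arrays correlated at 0.957 to 0.995 over all probes. The arrays came from 4 slides: E8.5 with 1 round lay on slides 2 and 3 (3 arrays each), E9.5 on slide 2, E10.5 and E11.5 on slide 4, and E12.5 on slide 3, so that slide and stage cannot be told apart for E10.5 against E9.5, E12.5 against E11.5 and E11.5 against E8.5. Of 13 erythroid markers with a probe, which include globin chains, Alas2 and Gata1, 12 were detected on each array with 1 round and 10 to 11 on each array with 2 rounds. Their summed signal differed between stages. With 2 rounds it was 7953 to 23419 at E7.5 and 61615 to 81906 at E8.5. With 1 round it was 43200 to 69960 at E8.5 and 72039 to 75897 at E11.5.

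Igf2, Igf2r, Cdkn1c and Grb10 were detected on all 24 arrays by at least 1 probe each. Dlk1 was detected on every array from E7.5 to E9.5 by its first probe, on 1 of 3 arrays at E10.5 (2 of 3 by its second probe), and on none at E11.5 and E12.5. Mest was detected on every array up to E9.5 by its first probe, on 2 of 3 arrays at E10.5 and at E11.5, and on none at E12.5. The first Peg3 probe was detected with 2 rounds on none of 3 arrays at E7.5 and on 2 of 3 at E8.5. With 1 round it was detected on all 18 arrays, so that its detection, unlike its signal, did not differ between stages. With 1 round the second Peg3 probe was detected on 2 of 6 arrays at E8.5 and 1 of 3 at E9.5. It was detected on all 3 at E10.5 and at E11.5, and on 1 of 3 at E12.5.

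Peg10 was detected only with 2 rounds, on 2 of 3 arrays at E7.5, and on none of the 18 arrays with 1 round. Plagl1 was detected by 1 of its 3 probes, on 1 of 3 arrays at E8.5 with 2 rounds, on 2 of 3 at E10.5 and on 1 of 3 at E11.5. Of the 18 probes, 3 were detected on no array, 1 of Peg3 and 2 of Plagl1. The plot of detection covers 5 genes with several probes, and probes of 1 gene could differ: with 1 round, Grb10 was detected on all 18 arrays by 2 of its 4 probes, and the second Mest probe was detected on 1 array in all.

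**Figure D1:**
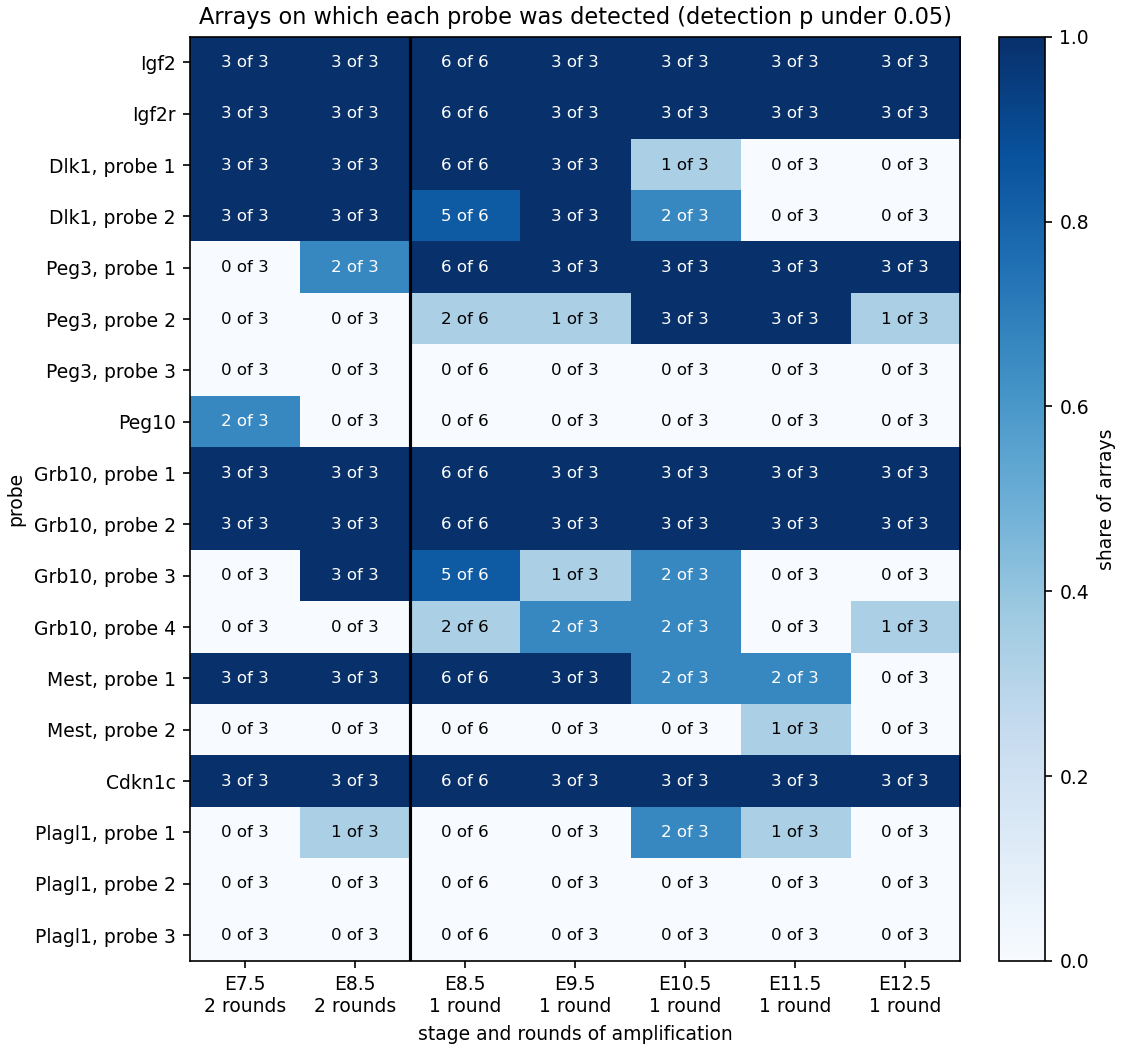
Number of arrays on which each of the 18 probes was detected (detection p under 0.05), by stage and rounds of amplification. Rows are probes and columns groups, and darker cells are a larger share of arrays. Igf2, Igf2r, Cdkn1c and the first 2 Grb10 probes were detected on every array, whereas the Dlk1 probes were detected on no array of E11.5 and E12.5.

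A probe was tested if detected on at least 3 arrays of a fit, which kept 9 member probes of 6 genes with 2 rounds and 13 of 8 genes with 1 round. Peg10, the third Peg3 probe, the second Mest probe and 2 Plagl1 probes were not tested in either set. Probes that passed through the stage at which they are high had to differ, so counts over the tested probes describe only those probes. A probe was called changed at an adjusted p under 0.05, from limma with Benjamini-Hochberg adjustment over all tested probes, and every difference is later minus earlier stage on the log2 scale with its standard error (SE). In the F test over the 5 stages with 1 round, 11 of 13 member probes were called, in 7 genes, against 72.9% of all 17408 tested probes. This test includes the E12.5 arrays, whose values depend on the scaling of the arrays, and it does not separate stage from slide.

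Igf2, the ligand of the family and a fetal growth factor, fell at each of the first steps that could be compared. With 2 rounds (probe ILMN_2597769), the log2 normalized values were 13.39, 13.16 and 12.80 at E7.5 and 11.25, 10.96 and 11.71 at E8.5. The groups did not overlap, and the difference was -1.81 (SE 0.22, adjusted p = 0.00481 by limma), a 3.52-fold lower level at E8.5. With 1 round, E8.5 ranged from 9.22 to 10.51 with a mean of 9.89 ± 0.52 (SD, n = 6), and E9.5 arrays read 8.08, 7.12 and 8.24. All 3 lay below all E8.5 arrays, and the difference was -2.08 (SE 0.29, adjusted p = 1.62e-05 by limma). Within slide 2 alone, where both stages lie, the difference was -1.72 (adjusted p = 0.00108).

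Igf2 values were lower still in the blood cells, although no step of 1 day passed the test over the 18 arrays. E10.5 arrays read 7.34, 6.86 and 7.57, and E11.5 arrays 6.30, 6.45 and 6.73. These groups did not overlap, and the difference of -0.77 (SE 0.34) had an adjusted p of 0.165 by limma over the 18 arrays and of 0.00733 within slide 4, which holds both stages. From E9.5 to E10.5 the difference was -0.56 (SE 0.34, adjusted p = 0.534), with overlapping arrays. From E8.5 to E11.5, a comparison added after the values were seen, Igf2 fell by 3.40 (SE 0.29, adjusted p = 3.11e-09), or 10.53-fold, and each array left out in turn kept this difference between -3.53 and -3.27. In the order of its mean levels, E8.5, E9.5, E10.5 and E11.5, the neighbours E9.5 and E10.5 overlapped.

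Igf2r, the receptor that clears IGF2 and carries lysosomal enzymes, had a smaller decline from E8.5. With 1 round (probe ILMN_2589275), E8.5 ranged from 6.22 to 7.09 with a mean of 6.62, and the E9.5 arrays read 5.69, 5.74 and 6.16. No E9.5 array reached the lowest E8.5 array, and Igf2r fell by 0.76 (SE 0.21, adjusted p = 0.0144 by limma). The call was not kept within slide 2: there the difference was -0.45 with an adjusted p of 0.145, and without E9.5 replicate 1 or replicate 2 the adjusted p was 0.0809 and 0.0859. E10.5 (mean 5.63) and E11.5 (mean 5.65) differed by 0.02 (SE 0.25, adjusted p = 0.981). From E8.5 to E11.5 the difference was -0.97 (SE 0.21, adjusted p = 0.000618). The E8.5 arrays of slide 2 (6.22 to 6.42, mean 6.308) all lay below those of slide 3 (6.82 to 7.09, mean 6.935), and both sets entered this difference. With 2 rounds E8.5 and E7.5 overlapped (-0.18, SE 0.32, adjusted p = 0.794).

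Dlk1, a membrane protein related to Notch ligands and a regulator of fetal growth and cell differentiation, was lost from detection after E10.5. For its first probe (ILMN_2771738), E8.5 arrays with 1 round ranged from 5.07 to 7.02, and E9.5 arrays read 5.72, 5.65 and 6.17. These groups overlapped, with a difference of -0.21 (SE 0.31, adjusted p = 0.729). The E11.5 arrays read 4.54, 4.55 and 4.48, all below detection and below every E8.5 array. Since the probe was not above background on any E11.5 array, the decline from E8.5 is a bound, at least 2.53-fold lower at E11.5 (the mean of the bright group over, on each dim array, the higher of the probe's own value and the lowest detected level above all undetected probes; adjusted p of the fit 0.000329). The second probe (ILMN_1244618) was also lower at E11.5, at least 1.34-fold (adjusted p = 0.0177), a call lost with slide as a random block (adjusted p = 0.135) and without E11.5 replicate 1 or replicate 3 (adjusted p 0.0622 and 0.0662).

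Mest, an enzyme of the alpha/beta hydrolase fold that marks mesoderm in the early embryo, fell between the first stages. With 2 rounds (probe ILMN_1253664), E7.5 arrays read 8.97, 8.71 and 8.16 and E8.5 arrays 7.63, 6.20 and 6.05. The groups did not overlap, and the difference was -1.99 (SE 0.45, adjusted p = 0.0336 by limma), or 3.97-fold. With replicate 1 or 2 of E7.5 left out, or replicate 2 or 3 of E8.5, the adjusted p lay between 0.0841 and 0.135. With 1 round, E8.5 arrays spread from 4.67 to 7.22 and overlapped those of E9.5, which read 5.37, 5.03 and 6.08. E11.5 arrays read 4.75, 4.80 and 4.63, and the difference from E8.5 was -1.28 (SE 0.41, adjusted p = 0.0144). Of these, 2 lay above the lowest E8.5 array, and the call was lost with slide as a random block (adjusted p = 0.0969) and without E11.5 replicate 3 (adjusted p = 0.0562).

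Peg3, a zinc finger protein, was called higher at E11.5 than at E10.5 by 1 of its 2 tested probes. For its first probe (ILMN_1245246), E8.5 arrays with 1 round ranged from 6.35 to 7.04, E9.5 arrays read 6.75, 6.36 and 6.17, and E10.5 arrays 6.35, 6.87 and 7.15. At E11.5 they read 8.02, 8.17 and 8.12, above every array of the 3 earlier stages. By this probe Peg3 rose by 1.31 from E10.5 to E11.5 (SE 0.23, adjusted p = 0.000918 by limma), and both stages lie on slide 4. The second tested probe differed by 0.27 in this step and was not called (SE 0.17, adjusted p = 0.375). The E8.5 to E11.5 difference was 1.55 (SE 0.20, adjusted p = 1.12e-06), and it was 0.75 (SE 0.15, adjusted p = 0.000183) for the second probe (ILMN_2677270), which was detected on 2 of 6 arrays at E8.5 and on all 3 at E11.5, with overlapping groups. With 2 rounds neither probe reached the 3 detected arrays needed for a test.

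Cdkn1c, an inhibitor of cyclin-dependent kinases also called p57, had its lowest 1-round level at E9.5 (probe ILMN_2708203). E8.5 arrays ranged from 5.91 to 7.82, E9.5 arrays read 5.71, 5.79 and 6.61, E10.5 arrays 6.76, 6.22 and 6.65, and E11.5 arrays 7.03, 7.31 and 7.34. E11.5 lay above E10.5 without overlap, with a difference of 0.68 (SE 0.39) whose adjusted p was 0.317 over the 18 arrays and 0.00654 within slide 4. The steps E9.5 minus E8.5 (-0.76, SE 0.34, adjusted p = 0.135) and E10.5 minus E9.5 (0.51, SE 0.39, adjusted p = 0.66) did not pass. With 2 rounds, the E7.5 arrays read 10.13, 9.89 and 9.47 and the E8.5 arrays 9.35, 9.04 and 9.02, a difference of -0.70 without overlap (SE 0.22, adjusted p = 0.0863).

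Grb10, an adaptor that binds and restrains the insulin and IGF1 receptors, was read by 4 probes that did not move together. Its first probe (ILMN_1238905) was high on every array: with 2 rounds 12.56, 12.19 and 11.65 at E7.5 and 13.19, 12.81 and 12.79 at E8.5, and with 1 round 10.62 to 11.44 at E8.5 and 11.47, 11.85 and 11.21 at E9.5. The 2-round groups did not overlap and the 1-round groups did. The E7.5 to E8.5 difference of 0.80 (SE 0.23) had an adjusted p of 0.073, and that from E8.5 to E9.5, 0.45 (SE 0.20), an adjusted p of 0.146. The second probe (ILMN_1230113) fell by 0.80 from E8.5 to E9.5 (SE 0.20, adjusted p = 0.00803 by limma), opposite in sign to the first, but its adjusted p was 0.148 within slide 2 and 0.0541 and 0.0633 without E9.5 replicate 1 and replicate 2. The third probe (ILMN_1257352) lay near background. With 2 rounds it read 4.19, 4.27 and 4.37 at E7.5, detected on no array, and 4.60, 4.97 and 4.65 at E8.5, detected on all 3. It entered that fit only through the E8.5 arrays, so that its call there (adjusted p = 0.0444), which leaving out any E7.5 array ended (adjusted p 0.0557 to 0.148), does not stand as support for a change. With 1 round it was detected on 5 of 6 arrays at E8.5 and on none at E11.5, and was at least 1.14-fold lower at E11.5 (adjusted p = 0.00307). The fourth probe (ILMN_2641843) was detected on no array with 2 rounds. With 1 round it was detected on 2 of 6 arrays at E8.5 and on 2 of 3 at E9.5 and at E10.5. At E11.5 it was detected on none and at E12.5 on 1 of 3. It was not called in the F test over the stages (adjusted p = 0.354). The sequences of the probes were not used here, so which Grb10 transcripts they read is not given.

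Plagl1, a zinc finger transcription factor that regulates other imprinted genes, stayed near background: its tested probe (ILMN_1252582) had 1-round means of 4.55 at E8.5 and 4.71 at E11.5, with an adjusted p of 0.424 in the F test. Peg10, a retrotransposon-derived gene needed in the placenta, read 4.83, 4.62 and 4.15 at E7.5 and 4.22, 4.17 and 4.18 at E8.5 with 2 rounds.

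**Figure D2:**
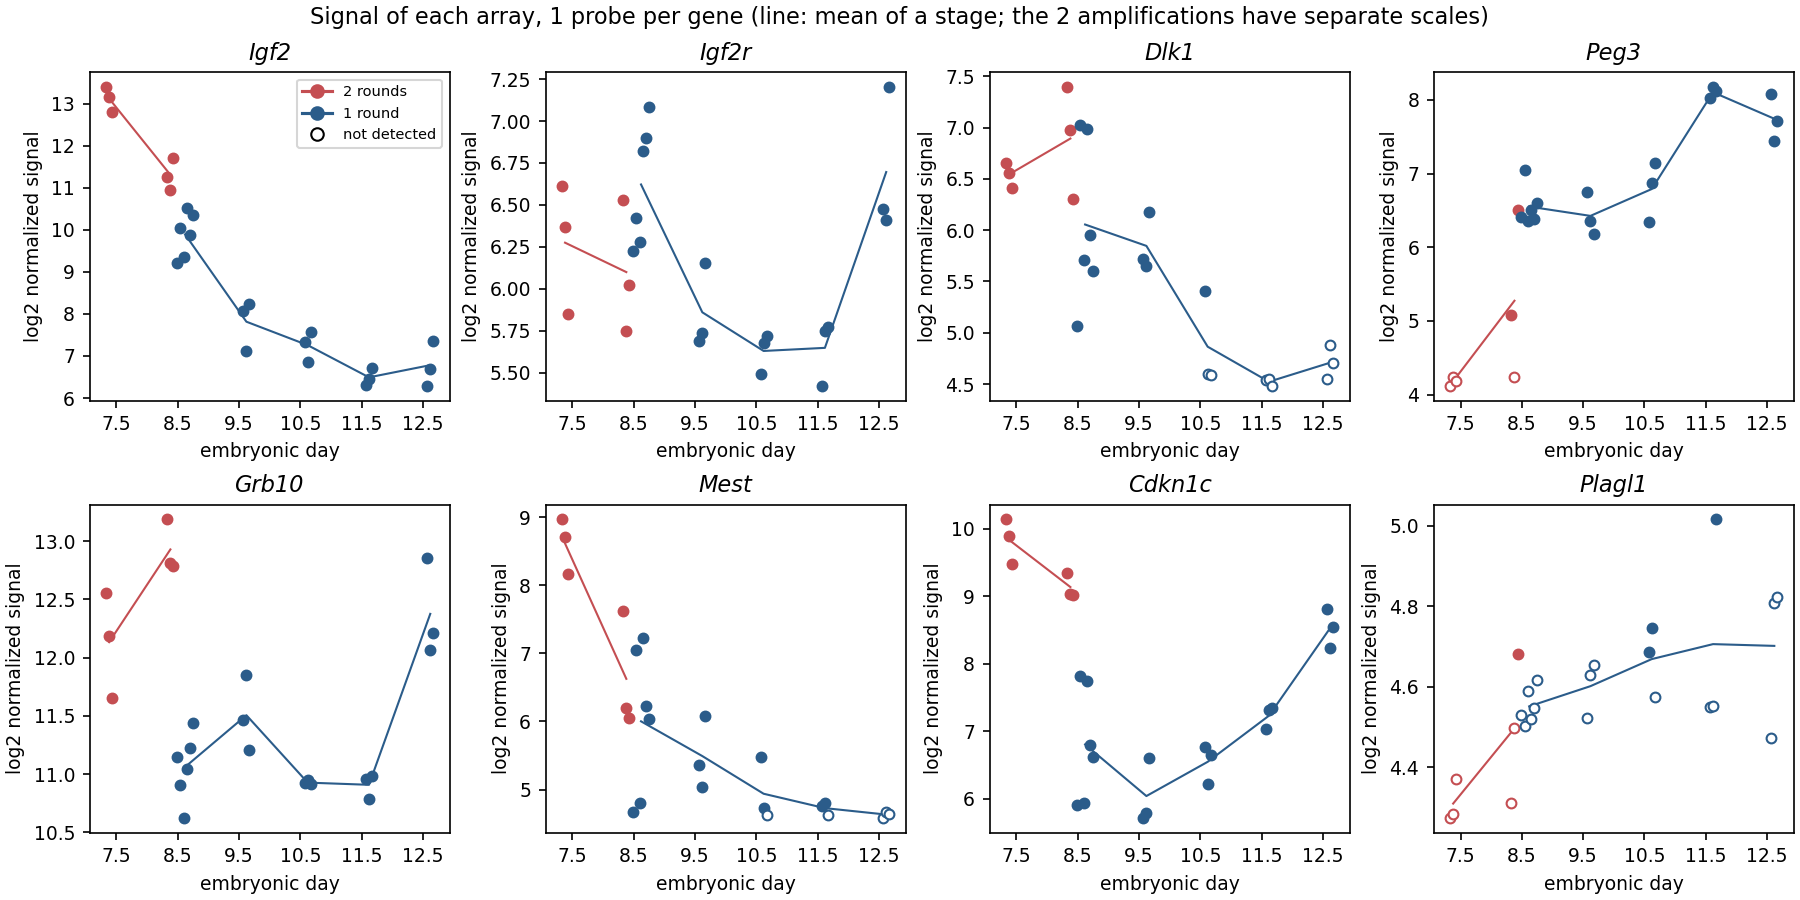
Log2 normalized signal (vertical axis) of the probe with the highest 1-round mean of each tested gene, by embryonic day (horizontal axis), 1 point per array. Red points are arrays with 2 rounds, blue points arrays with 1 round, open points arrays on which the probe was not detected, and lines join stage means. Igf2 went from a 1-round mean of 9.89 at E8.5 to 6.49 at E11.5, while Peg3 went from 6.55 to 8.11 (the E12.5 values depend on the scaling of the arrays).

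The calls over the members are set beside those over all tested probes, step by step. From E7.5 to E8.5, 1 of 9 member probes was called higher, the third Grb10 probe that passed the filter through E8.5 alone, and 2 were called lower, against 6.04% and 6.03% of 13941 tested probes, and the median difference was -0.03 for the members and -0.01 for all. From E8.5 to E9.5, none of 13 was called higher and 3 lower, against 7.57% and 8.99% of all (medians -0.21 and -0.02). From E9.5 to E10.5 limma called 0 of 13, against 1.09% called higher and 0.615% lower (medians -0.23 and 0.01), and 3 member probes had an unadjusted p under 0.05. From E10.5 to E11.5, 1 was called higher and none lower, against 5.09% and 5.43% (medians -0.02 and -0.03). From E8.5 to E11.5, 2 of 13 were called higher and 6 lower, against 18.8% and 23% (medians -0.42 and -0.03). With scaling to the median in place of quantile normalization, the share of all calls that were higher went from 45.7% to 23% for E9.5 minus E8.5, from 63.9% to 45.5% for E10.5 minus E9.5, from 48.4% to 36.3% for E11.5 minus E10.5 and from 44.9% to 21.3% for E11.5 minus E8.5, and the median of all probes became -0.25 in the first and -0.39 in the last of these. No called member probe turned its direction in these 4 comparisons under that scaling. The comparisons share arrays, and probes of 1 gene are not independent.

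**Figure D3:**
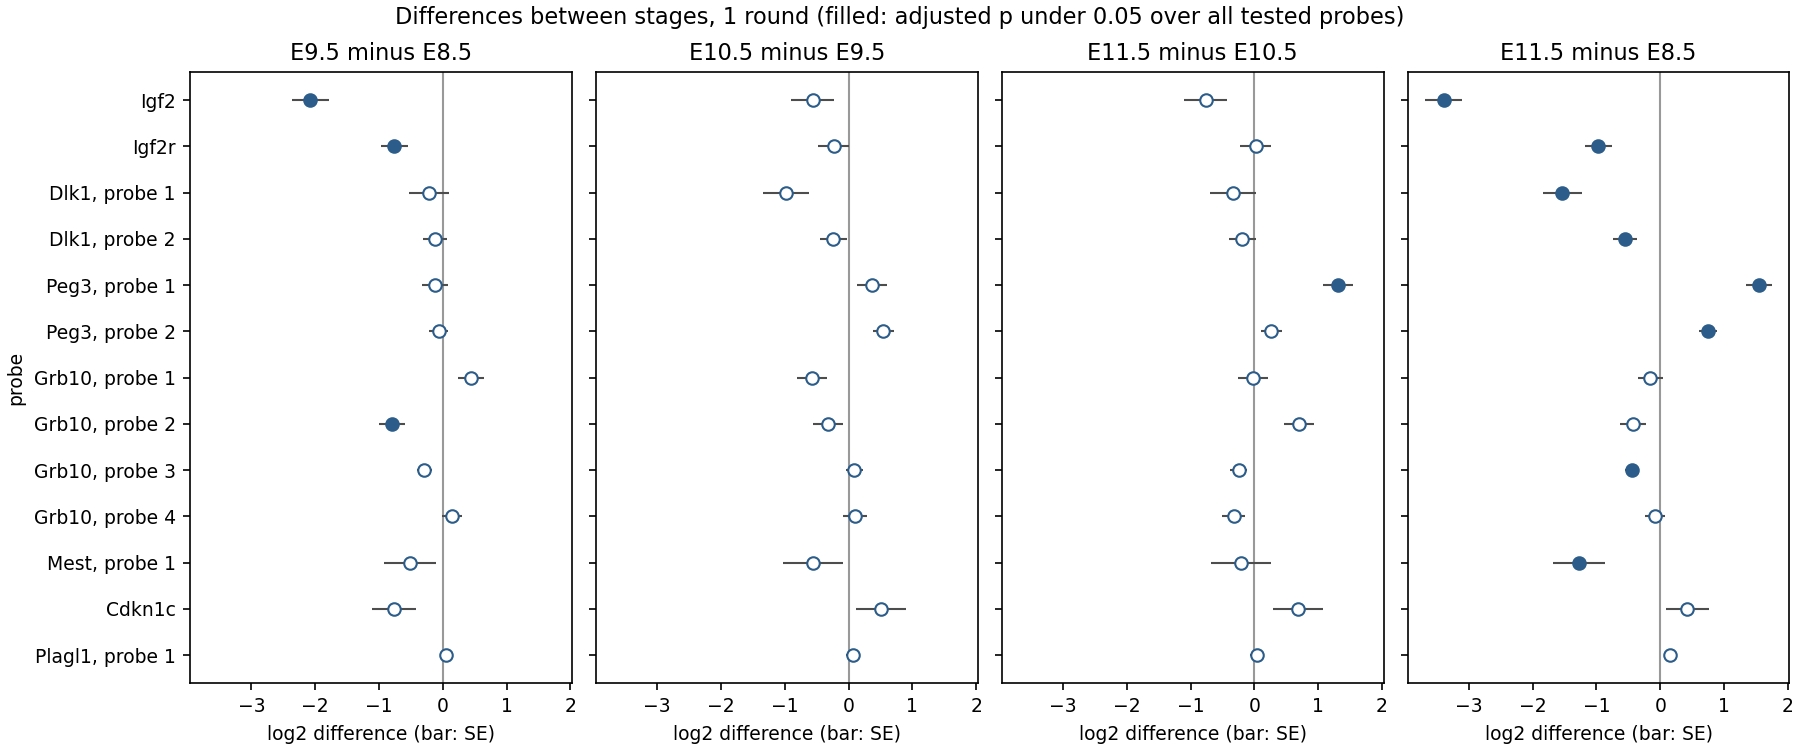
Log2 difference between stages (horizontal axis, later minus earlier, with its SE as a bar) for the 13 tested member probes (vertical axis), arrays with 1 round. Filled points had an adjusted p under 0.05 over all tested probes. Igf2 lay at -2.08 for E9.5 minus E8.5 and at -3.40 for E11.5 minus E8.5, and the first Peg3 probe at 1.31 for E11.5 minus E10.5.

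The E12.5 arrays had weaker signals than the others, and the direction of most members at this stage depended on how the arrays were scaled. From E11.5 to E12.5, 4 of 13 member probes were called higher and 1 lower, against 23.6% and 23.5% of all tested probes. From E8.5 to E12.5, 4 were called higher and 5 lower, against 32.2% and 35.1%. Deposited signals of slide 4, with E11.5, already shared 1 distribution, as after quantile normalization, while those of slide 3, with E12.5, did not. The deposited signal of the Igf2 probe was 116, 127 and 149 at E11.5 and 51.7, 55.4 and 60.4 at E12.5. Its quantile-normalized difference was 0.29 (SE 0.34, adjusted p = 0.518). For the first Grb10 probe the deposited signal was 2249, 2005 and 2278 at E11.5 and 3570.5, 1826 and 1460 at E12.5. Its normalized difference was 1.47 (SE 0.23, adjusted p = 1.98e-05). For the first Grb10 probe, Cdkn1c and Igf2r the difference was above 0 after quantile, cyclic loess and median scaling, though with cyclic loess only the first Grb10 probe of these was called (adjusted p = 7.54e-08, against 0.414 for Cdkn1c and 0.126 for Igf2r). It turned to -0.07, -0.97 and -0.52 with no further scaling between arrays, where matched slide 4 signals were set against slide 3 signals that were not matched.

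Igf2 kept its direction from E8.5 to E12.5 under every scaling. The normalized difference was -3.11 (SE 0.29, adjusted p = 3.67e-09), and it was -2.96 with median scaling, -2.82 with cyclic loess, -4.78 with no scaling, and -3.46 (adjusted p = 1.2e-05) within slide 3, which holds E12.5 and 3 E8.5 arrays. The first Dlk1 probe and Mest were lower at E12.5 than at E8.5 after quantile normalization, at least 2.03-fold and at least 1.96-fold. Both turned higher with median scaling, under which the median of all probes was 1.96, and neither was above background on any E12.5 array. For E12.5 minus E11.5 that median was 2.2 with median scaling and -0.04 after quantile normalization, and 94.2% against 50.1% of all calls were higher (88% against 47.8% from E8.5).

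**Figure D4:**
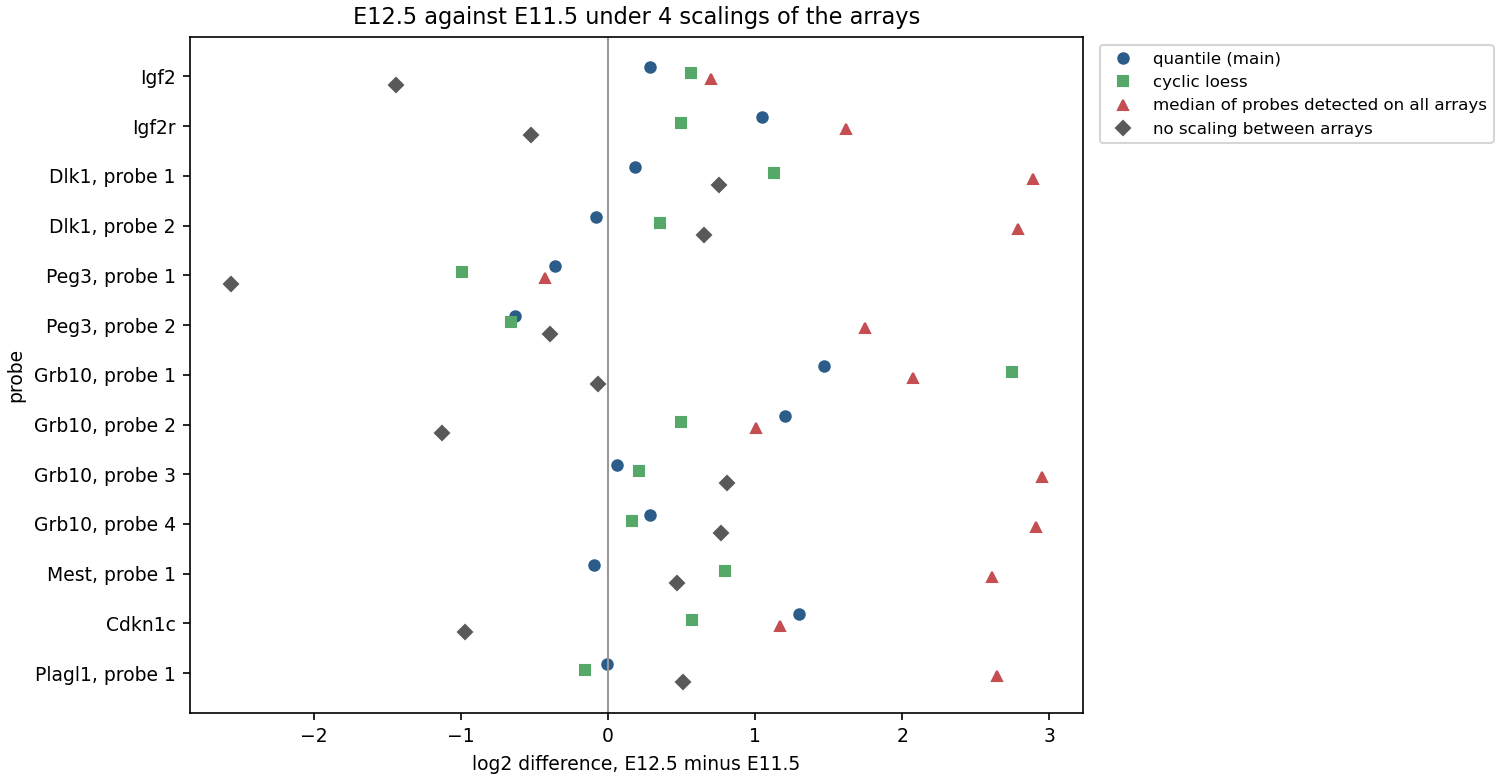
Log2 difference between E12.5 and E11.5 (horizontal axis) for the 13 tested member probes (vertical axis) under 4 scalings of the same background-corrected signals. Blue circles are quantile normalization, green squares cyclic loess, red triangles scaling to the median of probes detected on all arrays, and grey diamonds no scaling. The 4 values of the first Grb10 probe run from -0.07 to 2.75, and those of the first Peg3 probe all lie below 0.

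Markers of visceral endoderm, the tissue that lies against the yolk sac blood islands, moved with several members among the E8.5 arrays. The summed signal of its 15 markers with a probe, which include Ttr, Apoa1 and Amn, ran from 196 to 871 over the 6 E8.5 arrays with 1 round, with 8 to 13 markers detected, and from 115 to 117 at E11.5, with 1 to 3 detected. Afp was detected on 1 of these 6 E8.5 arrays, and Sox17 and Foxa2 on none. The highest sums, 871 and 818, were those of E8.5 replicates 2 and 4, which also had the highest Mest (7.05 and 7.22), Dlk1 (7.02 and 6.99) and Cdkn1c (7.82 and 7.74). Replicate 1, with the lowest sum, had the lowest of all 3 genes, at 4.67, 5.07 and 5.91. At E9.5, replicate 3 had the highest sum, 231, and the highest Mest, Dlk1 and Cdkn1c of its group, while replicate 1, with the lowest sum, 120.0, had higher Mest and Dlk1 than replicate 2, with 135.

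Without E8.5 replicates 2 and 4, the difference from E8.5 to E11.5 was -3.20 for Igf2 (adjusted p = 2.97e-08) and 1.67 for Peg3 (adjusted p = 1.27e-06), and the first Dlk1 probe, undetected at E11.5, was still called lower (adjusted p = 0.000333). The Mest difference was then -0.71 (adjusted p = 0.0781) and that of the second Dlk1 probe -0.34 (adjusted p = 0.0796), so that both calls were lost, while Cdkn1c gained one at 0.91 (adjusted p = 0.00624). From E8.5 to E9.5, 3 member probes were called with and without these arrays, while the uncalled differences of Mest and the first Dlk1 probe went from -0.51 and -0.21 to 0.06 and 0.27. With 2 rounds the summed endoderm signal was 196 to 621 at E7.5 and 939 to 3106 at E8.5, higher at the stage at which Igf2 and Mest were lower. Within each of these groups the order of the 3 arrays by this sum was also their order by Mest, the first Dlk1 probe, Cdkn1c and the first Grb10 probe. Igf2 and Igf2r had this order at E7.5 but not at E8.5. At E7.5 the sums 621, 389 and 196 went with Mest at 8.97, 8.71 and 8.16, and at E8.5 the sums 3106, 1519 and 939 with Mest at 7.63, 6.20 and 6.05. On the same arrays the erythroid sums were 7953, 18300 and 23419 at E7.5 and 61615, 81906 and 65446 at E8.5. The macrophage and leukocyte markers (6 with a probe) summed to 3575 to 4979 at E7.5 and 407 to 927 at E8.5. This sum was carried by Laptm5 (means 12.04 and 9.23). Spi1 was detected on all 3 arrays at E7.5 and on none at E8.5, and Tyrobp on none and then 1. Lyz2, Ptprc and Fcer1g were detected on none of these arrays. The epiblast and early mesoderm markers (8 with a probe) summed to 4795 to 7378 and 1712 to 2016, carried by Dnmt3b (means 12.54 and 10.84). Fgf5 was detected on all 3 arrays at E7.5 and on none at E8.5, and Mesp1 on 2 and then none. From E8.5 to E11.5 the mesenchyme sum (12 markers) was 335 to 729 and then 2964 to 3240. Of 4 tested mesenchyme genes, Prrx1 was called higher (2.93) and Acta2 lower (at least 2.28-fold), against 18.8% and 23% of all tested probes. Acta2 was detected on 5 of 6 arrays and then on none of 3. Col1a1, Col1a2, Col3a1 and Pdgfra were detected on no array of either stage. Over the same stages the endothelial sum (12 markers) was 860 to 1183 and then 1563 to 1892. The endothelial list split: of 7 tested genes 2 were called higher, Kdr (2.40) and Emcn (3.08), and 3 lower, with Egfl7 at -4.16, and Pecam1 went from 6 of 6 arrays detected to none of 3. The part of these markers in the results was not tested. Stages up to E9.5 also differ from the later ones in the source of the cells, digested embryos against blood, and the part of either in these differences was not tested.

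**Figure D5:**
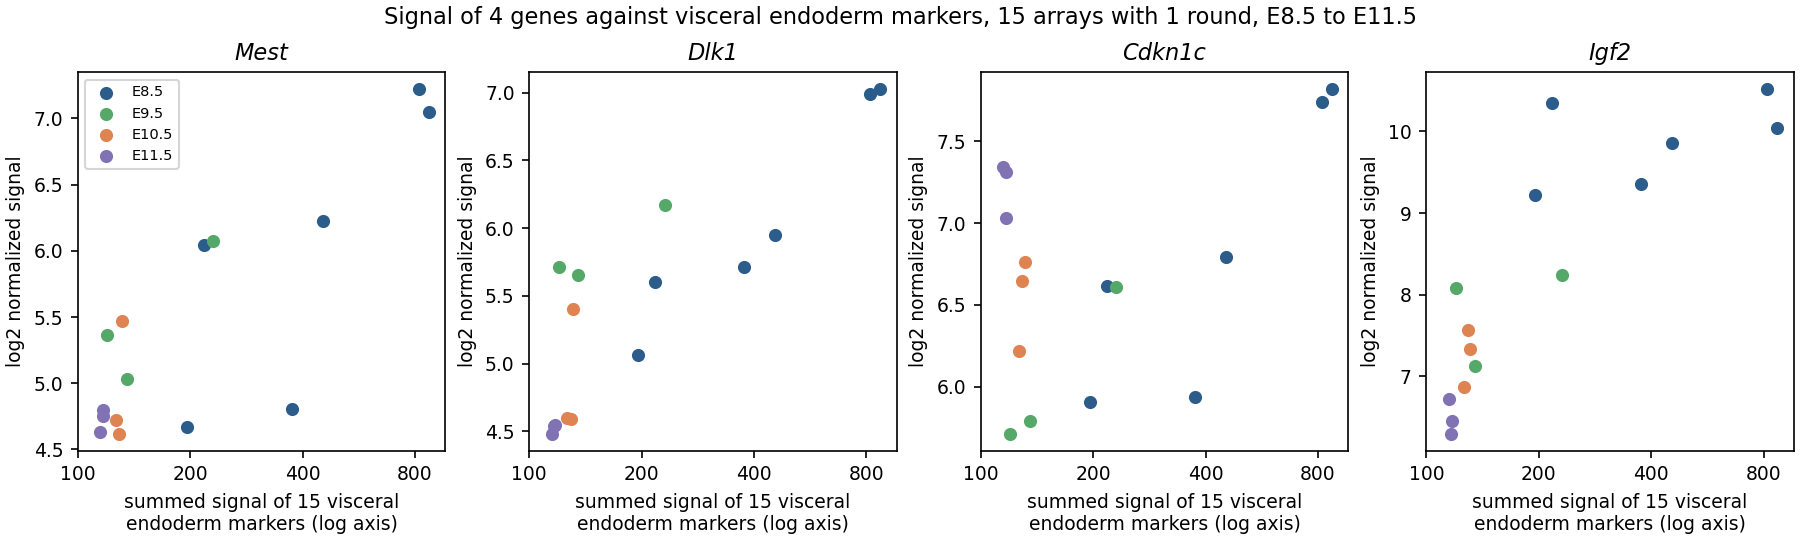
Log2 normalized signal of Mest, Dlk1, Cdkn1c and Igf2 (vertical axes) against the summed signal of 15 visceral endoderm markers (horizontal axis, log scale) on the 15 arrays with 1 round from E8.5 to E11.5, coloured by stage. The 2 E8.5 arrays with sums of 818 and 871 lie highest for Mest, Dlk1 and Cdkn1c. For Igf2 the 6 E8.5 arrays lie above all others. Among them the array with the lowest sum is lowest (9.22) and that with 818 highest (10.51), followed by the array with 217 (10.35).

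Over the 18 arrays with 1 round, Mest and Dlk1 had the most similar profiles among the members (Pearson r = 0.919), followed by Igf2 and Dlk1 (0.801) and Igf2 and Mest (0.768). These values, and those with other genes below, describe arrays that share stages, slides and marker levels. They include the E12.5 arrays, whose values depend on the scaling. Among 9404 other named genes, the profile most like that of Igf2 was that of the gap junction gene Gja1 (r = 0.971), followed by the activin receptor gene Acvr2b (0.967). Igf1r, the signalling receptor for IGF1 and IGF2, was the second most similar gene to Igf2r (0.934, after Fnbp1l at 0.939). Basp1 (0.963) and Fxyd6 (0.924) were most like Dlk1, Fxyd6 (0.926) and Ramp2 (0.921) most like Mest, and Specc1 and Fam117a (both 0.921) most like Peg3. Gm12592 (0.899) and Esrrb (0.893) were most like Grb10, and Ramac (0.89) and Zfc3h1 (0.879) most like Cdkn1c.

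Of the IGF and insulin pathway, 17 of 26 genes with a probe were tested with 1 round. From E8.5 to E9.5, 4 fell and none rose, against 8.99% and 7.57% of all tested probes, among them Igf1r (-0.97, SE 0.20, adjusted p = 0.00156) and the mRNA-binding genes Igf2bp3 (-0.77) and Igf2bp1 (-0.72), whose proteins bind Igf2 mRNA. Igf2bp1 fell again from E9.5 to E10.5, with a difference of -2.04 (SE 0.23, adjusted p = 4.99e-05), and from E10.5 to E11.5, with -0.89. From E8.5 to E11.5, 7 genes of the list fell and 1 rose, against 23% and 18.8% of all, with Igf2bp1 at -3.65 (SE 0.20, adjusted p = 5.73e-12), Igf2bp3 at -1.79 and Pik3r1, a PI3-kinase subunit, at -1.57. The median of the list was -0.27, against -0.03 over all tested probes.

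Other imprinted genes moved in both directions. Of 29 tested with 1 round, 7 rose and 9 fell from E8.5 to E11.5, near the 18.8% and 23% of all tested probes called, and the median was 0.06 against -0.03 over all. Cobl (2.32) and Ddc (1.67), neighbours of Grb10, were higher and Ppp1r9a, of the Peg10 cluster, lower (at least 1.77-fold). From E7.5 to E8.5 with 2 rounds, 1 rose and 5 fell of 30 tested, against 6.04% and 6.03% of all, led by Phlda2, a placental growth inhibitor of the Cdkn1c cluster, at -3.41 (SE 0.37). Of 13 tested genes of imprint maintenance, none rose and 6 fell from E8.5 to E11.5, against 18.8% and 23% of all, with a median of -0.31, led by the DNA methyltransferase gene Dnmt3b (-4.02, SE 0.28, adjusted p = 1.3e-10), Eed (-1.37) and Trim28 (-1.24).

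Among 20 tested partners of DLK1, CDKN1C and GRB10, 5 rose and 6 fell from E8.5 to E11.5, near the 18.8% and 23% over all tested probes, with a median of 0.02. The CDK inhibitor gene Cdkn2c was higher by 3.63 (SE 0.18, adjusted p = 1.22e-12), the difference was -2.02 for the cyclin gene Ccne1 and 1.89 for the cyclin gene Ccnd3. From E8.5 to E9.5, the receptor tyrosine kinase gene Kit went from detection on 6 of 6 arrays to none of 3, at least 2.94-fold lower (adjusted p = 3.09e-06 by limma). Its E8.5 arrays alone were enough to pass the filter, so this p-value adds no support beyond the detection counts. From E9.5 to E10.5, Cdkn2c (1.87) and Ccne2 (0.79) rose while no member of the imprinted growth genes was called.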

How the data were processed

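Cells were profiled on 24 Illumina bead arrays. The deposited intensity values are the mean signals per probe and array of the table that the file headers call non-normalized; per the file headers, a detection p-value was deposited with each. On slides 2 and 4 the signals share 1 distribution, as after quantile normalization, and on slides 1 and 3 they do not. No scaling between arrays here means none beyond that already in these signals. A second deposited table holds the authors' own normalized values, on a log2 scale as their range shows, used as an alternative only; the software is not given in the sources used here. Of 45719 probes, 29490 carry 1 symbol, 8 several and 16221 none in the platform annotation.

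Signals were background-corrected and quantile-normalized in log2 with neqc (offset 16, limma 3.58.1, R 4.3.3) for each amplification on its own, the control level being estimated through the detection p-values. Probes detected on at least 3 arrays were fitted with lmFit and eBayes with an intensity trend, 6 arrays in one fit and 18 in the other. All probes of the members were kept, and those not tested are described by detection. Other genes named are the called genes of each list with smallest p, at most 3 per comparison. The 2 genes most correlated with each member called in the F test are also named, as are marker genes beside their sums. In list calls and correlations, a gene outside the members was represented by its brightest tested probe. Marker sums, means and detection counts used the probe of each gene with the highest 1-round mean, tested or not, also for arrays with 2 rounds. The members and lists were chosen with earlier results of these data known. E11.5 against E8.5 was added after the values were seen. By description, E8.5 arrays 4 to 6 repeat the names of arrays 1 to 3, and E9.5 array 1 that of array 2; no 2 arrays were identical, and all were used as separate samples, as titled. On the arrays of slides 2 and 4, 1 probe with a detection p-value of 0 lay below undetected probes and was left out of the level used for bounds. The scripts were tested on simulated data.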

Additional observations from a re-analysis of the deposited data

Results flagged for a closer look

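The first Peg3 probe of E8.5 replicate 2 (1 round) stood apart from the other 5 arrays of its group. Its log2 value was 7.045 and the next highest 6.608, and this gap made up 0.632 of the range of the group. By chance about 1 in 20 groups holds such an array. The array is also the one with the highest summed visceral endoderm signal at E8.5. Without each array in turn, the Peg3 difference from E8.5 to E11.5 remained called.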

How the results depend on the processing

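Counts of called member probes are given by comparison. With each array left out in turn they ran from 1 to 3 for E8.5 minus E7.5, 1 to 5 for E9.5 minus E8.5, 6 to 9 for E11.5 minus E8.5 and 9 to 10 for E12.5 minus E8.5, and stayed at 0, 1, 5 and 11 for E10.5 minus E9.5, E11.5 minus E10.5, E12.5 minus E11.5 and the F test. For E8.5 minus E7.5 the count of 3 became 1 with no filter and 5 with array weights. For E9.5 minus E8.5 it became 5 with array weights or with E8.5 arrays averaged by description, and 1 with slide as a fixed block or within slide 2. For E10.5 minus E9.5 it became 1 with cyclic loess or with no scaling, 2 with E8.5 averaged and 4 with array weights. For E11.5 minus E10.5 it became 2 with median scaling, cyclic loess, no scaling, slide as a fixed or random block or E8.5 averaged, 4 with array weights and 6 within slide 4. For E12.5 minus E11.5 it became 12 with median scaling, 9 with no scaling, and 3 with cyclic loess, slide as a random block or 1 probe per gene. With cyclic loess 5 probes were called for E12.5 minus E8.5, and with 1 probe per gene 5 for E11.5 minus E8.5 and 7 in the F test, where fewer probes are counted. Other causes were not tested, and the fit of array weights stopped before it converged.

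Directions that reversed where a value was called all lay in the E12.5 comparisons. For E12.5 minus E11.5 with no scaling, the values were -1.44 for Igf2, -0.52 for Igf2r, 0.65 for the second Dlk1 probe, -0.069 and -1.13 for the first and second Grb10 probes, -0.97 for Cdkn1c and 0.51 for Plagl1. With median scaling they were 2.79 for the second Dlk1 probe, 1.75 for the second Peg3 probe, 2.61 for Mest and 2.65 for Plagl1. For E12.5 minus E8.5 with no scaling, they were -1.45 for Igf2r, -0.83 for the first Peg3 probe, -0.21, -1.44 and 0.25 for Grb10 probes 1, 2 and 3 and -0.39 for Cdkn1c. With median scaling they were 0.84 and 1.76 for the Dlk1 probes, 2.07 for Grb10 probe 3 and 0.94 for Mest, and with cyclic loess -0.52 for Igf2r.

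The replicate numbers did not pair the samples: same-numbered arrays correlated at -0.14 to 0.158 in their deviations from the group means. With the replicate number as a block, 1 member probe was called for E9.5 minus E8.5 and 2 for E11.5 minus E10.5. No scaling between arrays, leaving out E8.5 arrays 2 and 4, leaving out the E12.5 arrays, and E11.5 minus E8.5 were chosen after seeing the data. Signals near background bound the folds of Dlk1, Mest and Grb10 probe 3.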
